A study of Mus musculus with 12 samples.

Results

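The comparison set the 3 mouse fetal membrane libraries labelled E18 wild-type (WT) against the 3 labelled E12 wild-type, 6 of the 12 libraries in the series, and took in every gene in the count tables. E12 and E18 are embryonic day 12 and embryonic day 18. Both wild-type groups carry the strain label C3H and no engineered allele. The other 6 libraries came from mice without the proteoglycan genes Bgn and Dcn (double knockout, DKO), 3 at each day, with the strain label C3H and C57BL/6. The series was designed to compare the double knockout with wild type at each day as a model of preterm birth. The membranes were dissected, snap-frozen and ground, and poly(A) RNA was sequenced with a strand-specific kit. The E18 WT libraries are numbered 1 to 3 here, as in their titles, while their count columns carry the numbers 2 to 4. The labels do not say whether a library holds 1 membrane, 1 litter or a pool. The p-values therefore measure only the spread between these libraries, which may in part be technical. In bulk tissue, fewer cells of a type and less RNA per cell cannot be told apart.

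Mouse fetal membranes consist of the amnion, which lines the fluid around the fetus, and the yolk sac, whose visceral endoderm takes up nutrients and secretes alpha-fetoprotein and apolipoproteins. The yolk sac also makes the first, primitive red cells, which carry embryonic globins and are later replaced by definitive red cells from the fetal liver with adult globins. Placenta and maternal decidua lie against the membranes, so a dissection can carry over cells of either. Processed pseudogenes, which feature in the results, are copies of messenger RNAs that were written back into the genome and have no introns. A read from such a copy can be told from a read of its parent gene only where their sequences differ.

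Library totals ran from 20240876 to 30210498 counts over the 6 wild-type libraries. The visceral yolk sac endoderm markers, 34 of 34 tested, summed to 88179 to 183013 CPM in E12 WT (CPM are counts scaled to 1000000 per library, after TMM scaling) and to 59924 to 92010 CPM in E18 WT, so the tissue's own markers were present in all 6. Library E12 WT 1 stood apart: the Pearson correlation of its log2 CPM over genes was 0.924 with E12 WT 2 and 0.902 with E12 WT 3, which correlated at 0.972 with each other, and 0.940 to 0.948 with the 3 libraries labelled E18 DKO. Mitochondrial transcripts took 21.2% of the counts of E12 WT 3 and 4.09% to 7.66% in the other wild-type libraries. The common biological coefficient of variation was 0.545 within E12 WT, 0.334 within E12 WT 2 and 3 alone, and 0.338 within E18 WT. Stage and library names are used below as labels only, since the globin shares reported later do not follow them.

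The wild-type stage comparison called few genes with all libraries in the fit. Of 18153 genes tested with edgeR's quasi-likelihood test, 173 differed between E18 WT and E12 WT at an adjusted p below 0.05 (0.953%), of which 53 were higher (0.292%) and 120 lower (0.661%) in E18 WT. When E12 WT 1 was left out, 1684 of 18723 genes differed (8.99%), 633 higher (3.38%) and 1051 lower (5.61%), and the 173 genes were all among them with the same direction. Leaving out E12 WT 2 gave 96 genes, of which 75 were among the 173, and leaving out E12 WT 3 gave 104, of which 90 were. Leaving out E18 WT 1, 2 or 3 gave 38, 35 and 36 genes. In all, 148 of the 173 lost their call in at least 1 of these 6 fits, and 25 were called in every one. A fit of the 6 wild-type libraries alone called 56 genes, 53 of them lower. The same fit without E12 WT 1 called 228 genes, 79 higher and 149 lower, of which 84 were among the 173, while in the fit that gave 1684 the DKO libraries shared in the estimate of the spread. Scaling by library size alone moved the median log2 difference of all genes from -0.05 to 0.26 and gave 181 genes higher and 91 lower, against 53 and 120 with TMM scaling, so directions below are relative to the TMM-scaled median. Without E12 WT 1 the same change of scaling gave 1106 genes higher and 421 lower, with a median of 0.32 against 0.05. The CPM values of the 2 groups did not overlap for 3247 of the 18153 genes (17.9%), 1686 of them higher and 1561 lower in E18 WT.

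**Figure D1:**
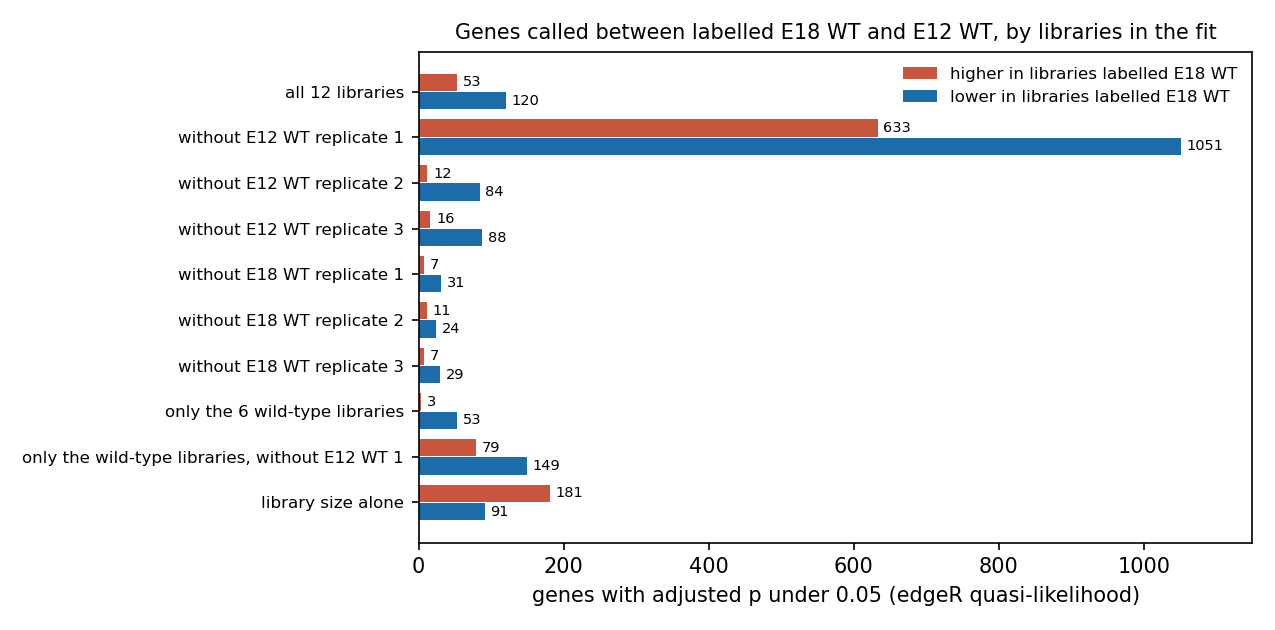
Number of genes called higher and lower in labelled E18 WT than in labelled E12 WT (adjusted p below 0.05, edgeR's quasi-likelihood test) for each set of libraries in the fit. The bars for the fit without E12 WT 1 reach 633 and 1051 genes, against 53 and 120 with all libraries.

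The genes called most steadily were nearly all lower in E18 WT, and most were pseudogenes. Of the 25 genes called whichever wild-type library was left out, 22 were lower and 3 higher, and 15 were pseudogenes. Those fits all kept the 6 DKO libraries for the spread, and 14 of the 25 were also called with the 6 wild-type libraries alone. The 3 that were higher were Noct, a deadenylase-family enzyme with a daily rhythm, and the noncoding genes Gm42047 and 2410018L13Rik. Among all 173 calls 37 were pseudogenes, 36 of them lower, which is 21.4% against 2.66% of the genes tested. Among the 1684 calls without E12 WT 1 the share was 5.46% (92 genes).

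The lower group also held 5 protein-coding genes outside the gene copies described below, each called in all 6 leave-one-out fits and named after that was seen. None of the 5 was called in the fit of the 6 wild-type libraries alone. Usp2, a deubiquitinase, measured 23.4, 17.8 and 23.7 CPM in E12 WT 1, 2 and 3 and 7.12, 7.41 and 8.17 CPM in E18 WT 1, 2 and 3, a log2 difference of -1.51 ± 0.19 (SE; n = 3 per group; adjusted p = 0.00481, edgeR). Mapk13, a stress-activated kinase (p38 delta), measured 53.9, 47.0 and 61.1 against 23.6, 23.1 and 24.4 CPM (-1.19 ± 0.15 on the log2 scale; edgeR adjusted p = 0.00461). Pnrc1, a nuclear receptor coregulator, measured 149.9, 148 and 152 against 68.6, 72.1 and 63.8 CPM (log2 difference -1.14 ± 0.14; edgeR adjusted p = 0.00444). The groups of these 3 genes did not overlap, and library E12 WT 1 lay beside the other E12 WT libraries. In the DKO libraries the same 3 genes rose between the stages, with Mapk13 at 20.5 to 23.5 CPM in E12 DKO and 157 to 191 CPM in E18 DKO. The difference of the stage changes between wild type and DKO was called for Usp2 (log2 -3.71; edgeR adjusted p = 5.39e-05). The other members were C1s2, a complement protease, at 0.881, 2.03 and 2.77 against 0.0377, 0 and 0.041 CPM, and Trim34b, of an antiviral TRIM family, at 5.33, 2.46 and 1.65 against 0, 0.117 and 0.0821 CPM. Trim34a, of the same family, measured 9.91, 0.714 and 0.353 CPM in E12 WT and 7.61, 6.33 and 10.2 CPM in E18 WT, and rose without E12 WT 1 (log2 difference 3.85; edgeR adjusted p = 0.0489). Both TRIM genes thus lay in opposite directions in E12 WT 2 and 3 against E18 WT, while E12 WT 1 was high for both.

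Other coding genes fell by larger amounts or from higher levels but with calls that rested on more of the libraries. Cdkn1c, an imprinted inhibitor of the cell cycle, measured 3261, 2054 and 2109 CPM in E12 WT and 913, 1027 and 822 CPM in E18 WT (log2 difference -1.43 ± 0.24; edgeR adjusted p = 0.0222). Dhrs3, which reduces retinaldehyde, measured 104, 86.5 and 104 against 53.5, 45.0 and 45.3 CPM (log2 difference -1.03 ± 0.16; edgeR adjusted p = 0.0175). Both rose between the DKO stages: Cdkn1c stood at 867 to 1043 CPM in E12 DKO and 3842 to 4822 CPM in E18 DKO, so the E18 WT libraries lay at the E12 DKO level. Gprc5a, a retinoic acid-induced receptor, measured 94.3, 38.9 and 28.8 against 11.9, 8.38 and 14.5 CPM (log2 difference -2.22 ± 0.42; edgeR adjusted p = 0.0377). Mycbpap, a gene of sperm and ciliated cells, measured 29.3, 8.10 and 8.24 against 1.13, 1.44 and 1.81 CPM (edgeR adjusted p = 0.0154), with E12 WT 1 the highest. For Hbegf, an epidermal growth factor receptor ligand, E12 WT 1 was instead the lowest of its group, with 14.3, 65.4 and 39.0 against 3.77, 3.93 and 5.87 CPM (log2 difference -3.13 ± 0.55; edgeR adjusted p = 0.0252). Abhd1 measured 30.3, 54.2 and 97.4 against 15.7, 16.6 and 11 CPM (edgeR adjusted p = 0.0356). The fits that left out E18 WT 1, 2 or 3 each ended the calls of Cdkn1c, Dhrs3, Gprc5a, Mycbpap, Hbegf and Abhd1, with highest adjusted p values from 0.0895 (Mycbpap) to 0.149 (Abhd1). Those of Hbegf and Abhd1 also ended without E12 WT 2 or 3.

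A few falls ran from a clear level to almost none. Zfp990, a zinc finger gene, measured 13.2, 39.6 and 61.9 CPM in E12 WT and 0.0377, 0.352 and 0.369 CPM in E18 WT (edgeR adjusted p = 0.0154; 0.0869 without E18 WT 3). The mitochondrial alanine tRNA mt-Ta measured 4.27, 6.07 and 44.7 against 0.377, 0.850 and 0.903 CPM (edgeR adjusted p = 0.0334; 0.146 without E18 WT 1). The last followed the library with the large mitochondrial share, E12 WT 3, and the part of that share in the result was not tested. Cyp4a12a, a fatty acid hydroxylase, and Rab37, a secretory GTPase, were among the few that also fell between the DKO stages. Cyp4a12a measured 4.93, 19.3 and 25.7 against 0.829, 1.41 and 0.410 CPM in wild type (log2 difference -4.21 ± 0.72; edgeR adjusted p = 0.023), and its DKO log2 difference was -5.44. Rab37 measured 6.65, 21.1 and 16.8 against 1.36, 1.76 and 1.64 CPM (log2 difference -3.22 ± 0.49; edgeR adjusted p = 0.0154), with -2.92 in DKO. Without E18 WT 3 the adjusted p was 0.121 for Cyp4a12a and 0.0924 for Rab37.

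The rises in E18 WT were fewer, and fewer of them were steady. Noct, the steady one with a known protein, measured 12.4, 5.28 and 3.35 CPM in E12 WT and 96.9, 46.8 and 46.2 CPM in E18 WT (log2 difference 3.17 ± 0.44; edgeR adjusted p = 0.0102). Its log2 difference was 3.86 ± 0.37 without E12 WT 1. With the 6 wild-type libraries alone Noct was not called (edgeR adjusted p = 0.0996). In DKO it went from 17.0 to 19.3 CPM at E12 to 25.8 to 27.4 CPM at E18, and the difference of the stage changes was called (log2 2.64; edgeR adjusted p = 0.00508). The highest E12 WT value of Noct was thus in E12 WT 1, and all E18 WT values lay above every DKO library. Slfn9, of an interferon-inducible family, measured 3.43, 2.32 and 3.18 against 10.9, 11.9 and 15.9 CPM (log2 difference 2.12 ± 0.30; edgeR adjusted p = 0.0108; 0.0503 without E18 WT 3). The gene listed as ccdc198 measured 1.98, 1.32 and 0.353 against 22.1, 15.4 and 14.7 CPM (log2 difference 3.81 ± 0.69; edgeR adjusted p = 0.0308; 0.115 without E18 WT 1).

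The other large rises were in genes of varied function, and 0 of 19 tested extraembryonic mesenchyme markers were called with all libraries. Without E12 WT 1, 2 of these markers were called higher and none lower, beside 3.38% higher among all genes. With E18 WT 3 left out as well, 1 was called higher and 1 lower. Rarb, a retinoic acid receptor and retinoid target, measured 2.07, 1.93 and 3.06 CPM in E12 WT and 9.61, 12.0 and 22.5 CPM in E18 WT (log2 difference 2.65 ± 0.52; edgeR adjusted p = 0.0411). Unc5c, a netrin receptor, measured 4.14, 5.17 and 7.71 against 14.5, 26.7 and 54.0 CPM, and Fat4, a giant cadherin, 10.5, 6.32 and 8.42 against 30.2, 20.01 and 46.9 CPM. Gli3, a Hedgehog pathway transcription factor, measured 5.55, 4.82 and 6.47 against 13.5, 13.9 and 23.4 CPM (log2 difference 1.59 ± 0.32; edgeR adjusted p = 0.0444). In all 4 of these genes the highest value was in E18 WT 3. Kctd12, a receptor-associated subunit, rose from 24.1, 20.3 and 23.6 to 52.9, 52.7 and 117 CPM, and Tril, a Toll-like receptor accessory protein, from 4.27, 4.92 and 7.94 to 25.2, 11.4 and 20.3 CPM. The ordinary cellular genes Acp1 (20.1, 10.4 and 8.89 to 42.4, 36.6 and 44.0 CPM), Fut10 (3.57, 1.86 and 2.12 to 7.46, 8.12 and 11.1 CPM) and Scoc (6.17, 4.25 and 6.12 to 13.9, 16.8 and 17.8 CPM) complete the 15 largest rises with Col2a1, Adgre1 and Rps3a1, described below. None of the 9 genes from Rarb to Scoc kept the call in all 6 leave-one-out fits, and leaving out E18 WT 3 ended it for each: the highest adjusted p values ran from 0.0800 (Kctd12, without E12 WT 2) to 0.153 (Gli3, without E18 WT 3). For Unc5c, Fat4, Kctd12 and Gli3 the log2 difference was 1.68, 1.77, 1.27 and 1.29 with E12 WT 1 and E18 WT 3 both left out.

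The pseudogene copies were read beside their parent genes because some parents lay the other way. For 19 copies, 14 of the on or off genes described below and 5 named falls chosen after their values were seen, the coding gene most like each was found by alignment, with 90.8% to 100% identity over the aligned bases. A stretch of 3 pairs is printed to show how little separates a copy from its parent. Each stretch is 90 bases of the sense strand, 5′ to 3′, on GRCm38, and capitals mark the bases at which copy and parent differ. Rps3a1 lies on chromosome 3 from 86137940 to 86142702 (minus strand) and its copy Rps3a3 on chromosome 13 from 108670603 to 108671397 (plus strand). Atp6v0c lies on chromosome 17 from 24163866 to 24169702 (minus strand) and Atp6v0c-ps2 on chromosome 6 from 37806086 to 37806550 (plus strand). Rps26 lies on chromosome 10 from 128624530 to 128626506 (minus strand) and Rps26-ps1 on chromosome 8 from 107439131 to 107439579 (minus strand).
Rps3a1: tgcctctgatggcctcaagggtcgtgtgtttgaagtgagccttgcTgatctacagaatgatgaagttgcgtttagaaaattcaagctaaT
Rps3a3: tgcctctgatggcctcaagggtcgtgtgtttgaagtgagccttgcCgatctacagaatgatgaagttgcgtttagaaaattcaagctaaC
Atp6v0c: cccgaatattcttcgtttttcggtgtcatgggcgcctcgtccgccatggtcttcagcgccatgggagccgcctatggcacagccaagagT
Atp6v0c-ps2: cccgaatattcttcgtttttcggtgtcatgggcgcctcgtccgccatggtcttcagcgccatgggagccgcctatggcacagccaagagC
Rps26: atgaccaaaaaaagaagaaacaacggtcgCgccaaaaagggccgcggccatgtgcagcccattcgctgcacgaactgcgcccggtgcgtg
Rps26-ps1: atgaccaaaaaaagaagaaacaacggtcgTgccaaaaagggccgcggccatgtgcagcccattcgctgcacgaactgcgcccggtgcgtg
Over the whole alignment Rps3a3 matched its parent at 783 of 792 bases, Atp6v0c-ps2 at 464 of 465 and Rps26-ps1 at 343 of 345. Reads that fit several places were not counted, so only reads that cover such a difference, a splice junction or flanking sequence could be assigned to 1 gene of a pair.

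Rps3a3, a copy of a small ribosomal subunit gene, was listed at 72.1, 194 and 435 CPM in E12 WT 1, 2 and 3 and at 0.264, 0.439 and 0.739 CPM in E18 WT 1, 2 and 3. Its parent Rps3a1 lay the opposite way, at 100, 52.4 and 40.5 against 252, 188 and 378 CPM, and rose (log2 difference 2.08 ± 0.40; edgeR adjusted p = 0.0395; 0.143 without E18 WT 3). Copy and parent counts added together came to 173, 246 and 476 against 253, 189 and 379 CPM, so the sums overlapped. The fall of Rps3a3 itself missed the threshold with all libraries (edgeR adjusted p = 0.103) and passed it without E12 WT 1 (0.0388). In DKO the copy did not follow the stage: E12 DKO 1, 2 and 3 gave 0.329, 43.7 and 0.36 CPM, and E18 DKO 1, 2 and 3 gave 109, 0.341 and 107 CPM.

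The proton pump gene Atp6v0c and its copy showed the same mirror pattern. Atp6v0c-ps2 stood at 33.9, 46.0 and 17.2 CPM in E12 WT and at 0.151, 0.234 and 0.041 CPM in E18 WT (edgeR adjusted p = 0.0654; 0.0305 without E12 WT 1). Atp6v0c stood at 28.4, 5.96 and 3.53 against 35.7, 37.2 and 20.4 CPM (log2 difference 1.30 ± 0.67; edgeR adjusted p = 0.332). Its rise passed the threshold without E12 WT 1 (2.70 ± 0.52 on the log2 scale; edgeR adjusted p = 0.0162). The sums were 62.3, 51.9 and 20.8 against 35.9, 37.5 and 20.4 CPM and overlapped.

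Eif3j2, a full-length copy of the translation initiation gene Eif3j1 that is annotated as protein-coding, gave the clearest such pair. It measured 11.8, 20.7 and 17.2 CPM in E12 WT and 0.452, 0.0293 and 0.123 CPM in E18 WT (edgeR adjusted p = 0.00275). Eif3j1 measured 29.5, 22.1 and 24.9 against 46.8, 46.4 and 49.9 CPM (log2 difference 0.90 ± 0.15; edgeR adjusted p = 0.0222; 0.098 without E18 WT 3). Their sums were 41.2, 42.8 and 42.1 against 47.2, 46.4 and 50.0 CPM, so the groups of sums did not overlap but lay close.

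For the copies Rps26-ps1, Eno1b and Hmga1b the groups of the parent overlapped. Rps26-ps1 fell, with 9.91, 21.8 and 18.5 CPM in E12 WT and 0.151, 0 and 0.205 CPM in E18 WT (edgeR adjusted p = 0.00274). Its parent Rps26 measured 202, 400 and 697 against 270, 241 and 282 CPM, and without E12 WT 1 was lower too (log2 difference -1.05; edgeR adjusted p = 0.0226). The high values of Rps26 were in E12 WT 2 and 3, as for other ribosomal protein genes below. Eno1b, an intronless copy of the glycolytic gene Eno1 annotated as protein-coding, measured 13.8, 60.8 and 35.1 against 0.0754, 0.117 and 0.123 CPM (edgeR adjusted p = 0.000317). Eno1 measured 184, 366 and 271 against 368, 405 and 265 CPM (edgeR adjusted p = 0.566), so its groups overlapped. Hmga1b, a chromatin protein copy, measured 10.3, 39.7 and 22.0 against 1.39, 1.14 and 0.369 CPM (log2 difference -4.61; edgeR adjusted p = 0.0466; 0.165 without E18 WT 3), and Hmga1 measured 35.6, 59.7 and 21.7 against 86.9, 97.9 and 43.1 CPM (edgeR adjusted p = 0.228). Over the 19 pairs, 12 parents had a higher mean in E18 WT and 7 a lower one, 4 were above all E12 WT values in every E18 WT library and none below, beside 1686 and 1561 of the 18153 tested genes (17.9% in all). Among these 4, the parent Gm10073 was barely expressed, at 0.176, 0.0714 and 0.118 against 0.264, 0.703 and 0.533 CPM. The test called 2 parents higher (Rps3a1 and Eif3j1) and none lower with all libraries, and 3 higher and 3 lower without E12 WT 1, beside 3.38% and 5.61% of all genes in that fit. The 2 called of 19 are read against the 0.292% of tested genes called higher, and the copies were picked for being low in E18 WT, so reads assigned to 1 gene of a pair are not independent of the other.

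**Figure D2:**
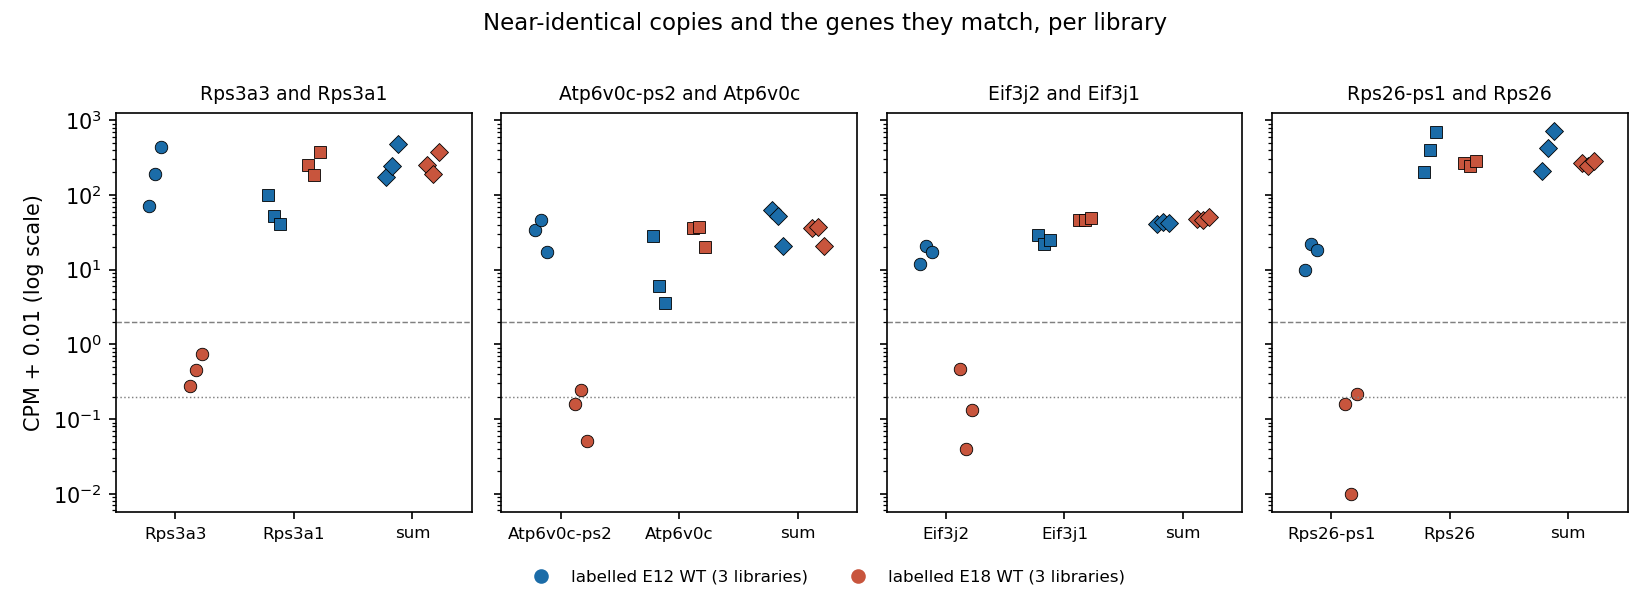
CPM in each of the 6 wild-type libraries (log axis) of a gene copy, of the coding gene most like it, and of both added together, 1 panel per pair; each point is 1 library, coloured by its label. Rps3a3 lies at 72.1 to 435 CPM in E12 WT and under 1 CPM in E18 WT, while the sums with Rps3a1 overlap.

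Genes that behaved as switched on or off between the groups were counted without a test. A gene counted as on in a group with at least 2 CPM in every library and as off with under 0.2 CPM in every library. By this rule 17 genes were on in E12 WT and off in E18 WT, on 9 chromosomes, and none the other way. They were 13 pseudogenes, Eno1b, the collagen VI chain gene Col6a5, the interferon-inducible Ifi202b, which is known to differ between mouse strains, and Adamdec1, a metalloprotease-like gene. Nudc-ps1 stood at 5.33, 18.3 and 38.8 against 0.0377, 0.0293 and 0.041 CPM. Rps15a-ps8 had 2.64, 8.17 and 12.0 CPM in E12 WT and no counts in E18 WT, where 3 counts would be 0.113, 0.0879 and 0.123 CPM. Col6a5 stood at 9.34, 6.74 and 5.59 against 0, 0.0586 and 0.041 CPM (edgeR adjusted p = 0.043; 0.162 without E18 WT 3). Ifi202b had 8.98, 2.60 and 6.65 against 0.0754, 0.0293 and 0.0821 CPM, and Adamdec1 4.67, 5.24 and 6.41 against 0.113, 0.0293 and 0 CPM. Despite the clean separation the test did not call Ifi202b (edgeR adjusted p = 0.187) or Adamdec1 (0.132), and it called 12 of the 17.

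The DKO libraries, whose strain label adds C57BL/6, showed these genes on in some libraries and off in others of the same stage. Of the 17 genes 10 were mixed in this way, 5 were on in all 6 DKO libraries (Eno1b, Rps15a-ps8, Gm14513, Gm11942 and Gm14719), Gm15920 was off in all 6, and Rpl31-ps15 was on or between the limits. Col6a5 gave 9.07, 6.54 and 9.91 CPM in the E12 DKO libraries and 12.0, 0.0426 and 12.0 CPM in the E18 DKO libraries, so 1 library of 6 was off. Atp6v0c-ps2, which missed the limits in 1 E18 WT library, stood at 21.0, 20.5 and 47.9 and at 0.055, 21.3 and 0.163 CPM in the same order. Between the DKO stages 86 genes were on only at E18 and 40 only at E12, by the same limits, with 5 pseudogenes among them. The wild-type set therefore held 13 pseudogenes of 17 genes and the DKO set 5 of 126.

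**Figure D3:**
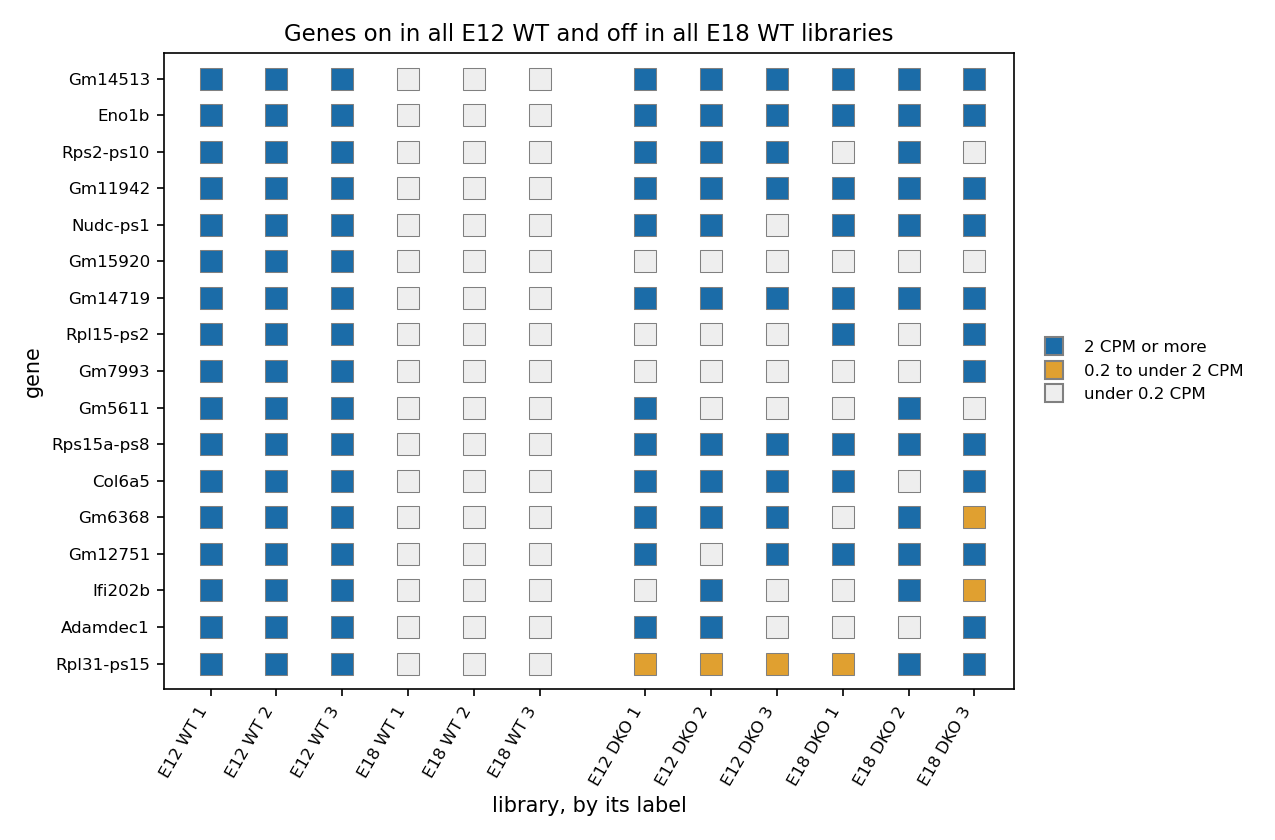
State of the 17 on or off genes in all 12 libraries, by label: 2 CPM or more, 0.2 to under 2 CPM, or under 0.2 CPM. All 17 are on in the 3 E12 WT libraries and off in the 3 E18 WT libraries, and 10 are on in some DKO libraries and off in others.

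The rule gave 38 genes without E12 WT 1, 33 on in E12 WT and 5 on in E18 WT. The 5, chosen after their values were seen, were the erythroid gene Tspo2, the antigen-presentation gene H2-Ab1, the protocadherin Pcdhga10, the TRIM gene Trim12a and the noncoding 2610507I01Rik. E12 WT 1 was above the on limit for Tspo2, Pcdhga10 and Trim12a, and between the limits for H2-Ab1 (1.41 CPM) and 2610507I01Rik (1.32 CPM). Trim12a, for example, stood at 11.1 CPM in E12 WT 1, at 0.178 and 0.118 CPM in E12 WT 2 and 3, and at 9.35, 6.68 and 15.4 CPM in E18 WT. Tspo2 stood at 2.07, 0.0357 and 0 against 2.41, 2.84 and 4.27 CPM and rose without E12 WT 1 (edgeR adjusted p = 0.00798). H2-Ab1 stood at 1.41, 0.107 and 0.118 against 2.53, 3.90 and 2.30 CPM. Within the E12 WT group, 50 genes were on in E12 WT 1 and off in E12 WT 2 and 3, and 5 the reverse. Of the 50, 17 were on in all E18 DKO libraries, 3 in all E18 WT libraries, and 20 were off in all E18 WT libraries.

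To see whether the wild-type differences ran the way of membrane maturation, the genes that change between the DKO stages were used as a reference. In the 6 DKO libraries, 6502 of 17133 genes changed at least 2-fold with an adjusted p below 0.05 (38%), 3346 higher and 3156 lower at E18. Genotype and strain differ between this reference and the wild type. Of the 3346, none was called higher in E18 WT and 45 were called lower (1.34%, against 0.661% of all tested genes). Of the 3156, 8 were called lower (0.253%) and 23 higher (0.729%, against 0.292%). The median log2 difference between E18 WT and E12 WT was -0.48 over the 3346 genes and 0.33 over the 3156, against -0.05 over all genes and 1.87 and -1.96 in DKO itself. Without E12 WT 1, 133 of the 3346 were called higher, as in DKO (3.97%), and 205 lower (6.13%), beside 3.38% higher and 5.61% lower among all genes. Of the 3156, 90 were called lower, as in DKO (2.85%), and 120 higher (3.8%), beside the same 5.61% and 3.38%. The medians were 0.00 and 0.20 against 0.05 over all genes. The difference of the stage changes between wild type and DKO was called for 7600 of 18153 genes (41.9%), among them 2615 of the 3346 and 2472 of the 3156.

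Single libraries differed in how far they lay along these genes. Relative to the E12 DKO mean, which also entered the choice of these genes, the median log2 level of the 3346 genes was 0.91 in E12 WT 1, 0.15 in E12 WT 2, 0.22 in E12 WT 3, and 0.13, 0.06 and 0.33 in E18 WT 1, 2 and 3. For the 3156 genes it was -0.84, -0.23 and -0.39 in E12 WT and -0.16, -0.05 and -0.38 in E18 WT. E12 WT 1 thus lay farthest toward the E18 DKO side in both sets, and the 3 E18 WT libraries overlapped with E12 WT 2 and 3.

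**Figure D4:**
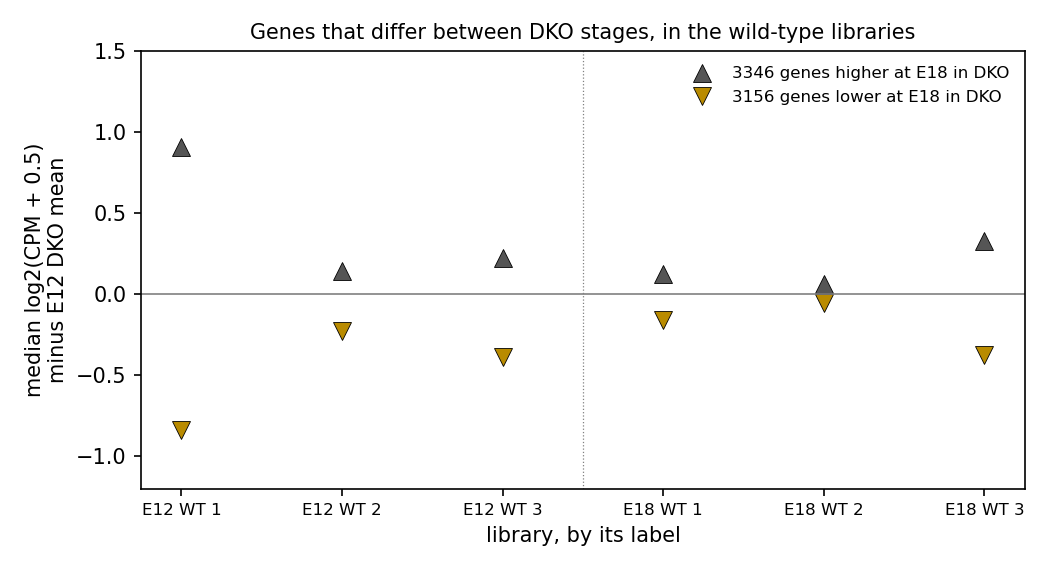
Median log2(CPM + 0.5) of the genes that rise or fall between the DKO stages in each wild-type library, minus the E12 DKO mean. E12 WT 1 lies at 0.91 and -0.84, the other 5 libraries within 0.33 and -0.39.

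Globins gave a stage reading that does not depend on scaling between libraries. Reads that fit several places were not counted. The shares thus also depend on how many reads of each globin gene fit 1 place, which was not tested. Embryonic beta-globins (Hbb-y and Hbb-bh1) made up 14.8% (95% exact binomial interval 14.6 to 15.1) of beta-globin counts in E12 WT 1, 95.1% in E12 WT 2 and 97.1% in E12 WT 3. In E18 WT 1, 2 and 3 the shares were 81.4%, 87.8% and 74.8%. DKO libraries stood at 82.3% to 85.1% at E12 and 1.33% to 2.67% at E18, so by this share E12 WT 1 lay between the DKO stages and the E18 WT libraries lay nearer to E12 DKO than to E18 DKO. The mean share was 12.3 percentage points higher in E18 WT (two-sided exact permutation test, p = 1), and without E12 WT 1 it was 14.7 points lower (difference -14.7; exact permutation p = 0.2). The design of 3 against 3 cannot give a p under 0.1. Without E12 WT 1 the test has still fewer arrangements, and both remaining E12 WT shares lay above all E18 WT shares. The embryonic share of alpha-globin was 11%, 61.7% and 46.0% in E12 WT and 29.9%, 45.3% and 22.9% in E18 WT, beside 42.9% to 43.9% in E12 DKO and 0.374% to 0.762% in E18 DKO. By alpha-globin, 2 of the 3 E18 WT libraries lay below the E12 DKO range and 1 above it.

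Single globins moved in both directions when E12 WT 1 was set aside. Adult Hba-a2 stood at 791, 8.88 and 6.59 CPM in E12 WT and at 651, 456 and 975 CPM in E18 WT, and rose without E12 WT 1 (log2 difference 6.48 ± 0.99; edgeR adjusted p = 0.0081). Adult Hbb-bt stood at 573, 60.5 and 34.0 against 537, 332 and 953 CPM (3.68 ± 0.80 on the log2 scale without E12 WT 1; edgeR adjusted p = 0.023). Among embryonic globins, Hbb-bh1 stood at 55.7, 759.6 and 449.7 against 70.9, 155 and 57.5 CPM and fell without E12 WT 1 (log2 difference -2.68 ± 0.50; edgeR adjusted p = 0.0152), and so did Hba-x (-1.75 ± 0.45; edgeR adjusted p = 0.04). Hbb-y, the most widely used embryonic beta-globin marker, stood at 669.5, 8683 and 7626 against 5858, 4716 and 6846 CPM and was not called (edgeR adjusted p = 0.488 without E12 WT 1). Hba-a2 and Hbb-bt were thus higher in all E18 WT libraries than in E12 WT 2 and 3, and E12 WT 1 was high for both. The other adult genes did not share this order: Hba-a1 stood at 1529, 2395 and 2893 against 1322, 967 and 1746 CPM, and Hbb-bs at 3586, 431 and 211 against 817.5, 346 and 1377 CPM. Neither was called with or without E12 WT 1 (edgeR adjusted p = 0.179 and 0.174 without it). Hba-a1 was highest in E12 WT 2 and 3, the libraries where Hba-a2 was lowest. The rise of Hba-a2 alone is therefore not read as a rise of adult alpha-globin. Reads that fit several places were not counted, and how reads were split among the adult globin genes was not tested. No member of the 17 tested definitive erythroid genes was called with all libraries.

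Placental markers were high in 1 library. The markers of trophoblast giant cells and spongiotrophoblast, 25 tested, summed to 277, 410.4 and 284 CPM in E12 WT 1, 2 and 3 and to 266, 188 and 2158 CPM in E18 WT 1, 2 and 3. E18 WT 3 held the highest value of 22 of the 25. Tpbpa, the defining spongiotrophoblast gene, stood at 0.837, 24.9 and 0.765 CPM in E12 WT and at 15.5, 3.98 and 556 CPM in E18 WT, and the placental lactogen gene Prl3b1 at 0.705, 6.78 and 0.294 against 2.64, 1.38 and 165 CPM. The prolactin-family gene Prl8a2, which belongs to the decidua list and not to the 25, stood at 0.220, 0.428 and 2.12 against 0.603, 0.293 and 71.4 CPM. These 3 genes, named after their values were seen, were high in E18 WT 3 and near the E12 WT range in the other 2 E18 WT libraries. None of the 25 was called with or without E12 WT 1, although their median log2 difference was 5.85, against -0.05 over all genes; without E18 WT 3 it was 1.12. Labyrinth trophoblast markers, 18 tested, summed to 13242 to 19587 CPM in E12 WT and to 10520 to 12171 CPM in E18 WT. The groups did not overlap, and none was called with all libraries. This order was not particular to placental markers. Amnion epithelium markers summed to 4520 to 6511 against 3120 to 3852 CPM. Imprinted genes summed to 47285 to 60100 against 35333 to 39529 CPM, and Igf2 is in both the labyrinth and the imprinted list.

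Decidual and uterine markers summed highest in E12 WT 1. The 27 tested decidua markers summed to 3296, 1113 and 1064 CPM in E12 WT and to 1033, 955 and 1314 CPM in E18 WT. In DKO they summed to 1130 to 1431 CPM at E12 and 2467 to 4289 CPM at E18, so E12 WT 1 lay within the E18 DKO range. Member by member, E18 WT 3 was the highest wild-type library for 10 of the 27 and E12 WT 1 for 9. The decidua list gene Prl8a2, given with the placental markers above, was highest in E18 WT 3. One gene of the list was called, Hoxa10, which is needed in the uterus for decidualization and is also a posterior patterning gene. It measured 0.220, 1.14 and 0.647 against 9.35, 5.68 and 8.0 CPM (log2 difference 3.49 ± 0.71; edgeR adjusted p = 0.0466; 0.148 without E18 WT 1). Its direction was thus not that of the summed decidua markers. The 17 tested uterine epithelium and gland markers summed to 810.03, 320.5 and 412 against 403, 333 and 425 CPM, with none called. E12 WT 1 was highest for 8 and E18 WT 3 for 7 of them. In DKO these markers summed to 277 to 315 CPM at E12 and 3994 to 5554 CPM at E18.

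The rise of Hoxa10 went with other posterior Hox genes, which place structures along the body axis and mark posterior mesoderm. Of 30 Hox genes tested, 3 were called higher and none lower, beside 0.292% higher among all genes, and the median log2 difference was 0.63 against -0.05. Hoxa13 measured 0.969, 0.928 and 0.824 against 8.52, 5.65 and 4.39 CPM (log2 difference 2.76 ± 0.56; edgeR adjusted p = 0.0481; 0.156 without E18 WT 1), and Hoxd11 measured 0, 0.0357 and 0 against 2.83, 0.791 and 1.40 CPM (edgeR adjusted p = 0.0462; 0.148 without E18 WT 1). Hoxa9 and Hoxd12 joined them without E12 WT 1. With E12 WT 1 and E18 WT 3 both left out, 2 were called, and no Hox gene was called with E18 WT 3 or E12 WT 3 alone left out. The highest value of 16 of the 30 was in E18 WT 3, and the list summed to 77.7 to 193 CPM in E12 WT and 129 to 229 CPM in E18 WT.

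Markers of other cell types gave 3 more calls, all higher, beside 0.292% higher among all genes. Col2a1, the main cartilage collagen, measured 18.6, 73.2 and 115 CPM in E12 WT and 742, 293 and 484 CPM in E18 WT (log2 difference 2.88 ± 0.57; edgeR adjusted p = 0.0444; 0.148 without E18 WT 1). It was the single called gene of 15 cartilage markers, which summed to 359, 1709 and 1992 against 2633, 1351 and 2132 CPM. In DKO it went the other way, from 170 to 314 CPM at E12 to 2.23 to 3.33 CPM at E18. The macrophage genes Adgre1 (2.73, 2.39 and 1.59 against 6.60, 8.35 and 9.52 CPM; log2 difference 1.86 ± 0.37; edgeR adjusted p = 0.0444; 0.145 without E18 WT 3) and F13a1 (31.8, 31.3 and 29.2 against 61.5, 59.0 and 99.1 CPM; log2 difference 1.25 ± 0.21; edgeR adjusted p = 0.0222; 0.0727 without E18 WT 3) rose. They were 2 of 18 macrophage markers, whose sums of 1206, 531 and 621 CPM in E12 WT and 624, 534 and 754 CPM in E18 WT overlapped. Prrx1, a limb and mesenchyme transcription factor, belongs to the extraembryonic mesenchyme list. It stood at 3.83, 0.607 and 1.00 against 46.2, 8.88 and 19.2 CPM and rose without E12 WT 1 (log2 difference 4.97; edgeR adjusted p = 0.041). With all libraries in the fit, 32 of the 40 lists examined had no called member.

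**Figure D5:**
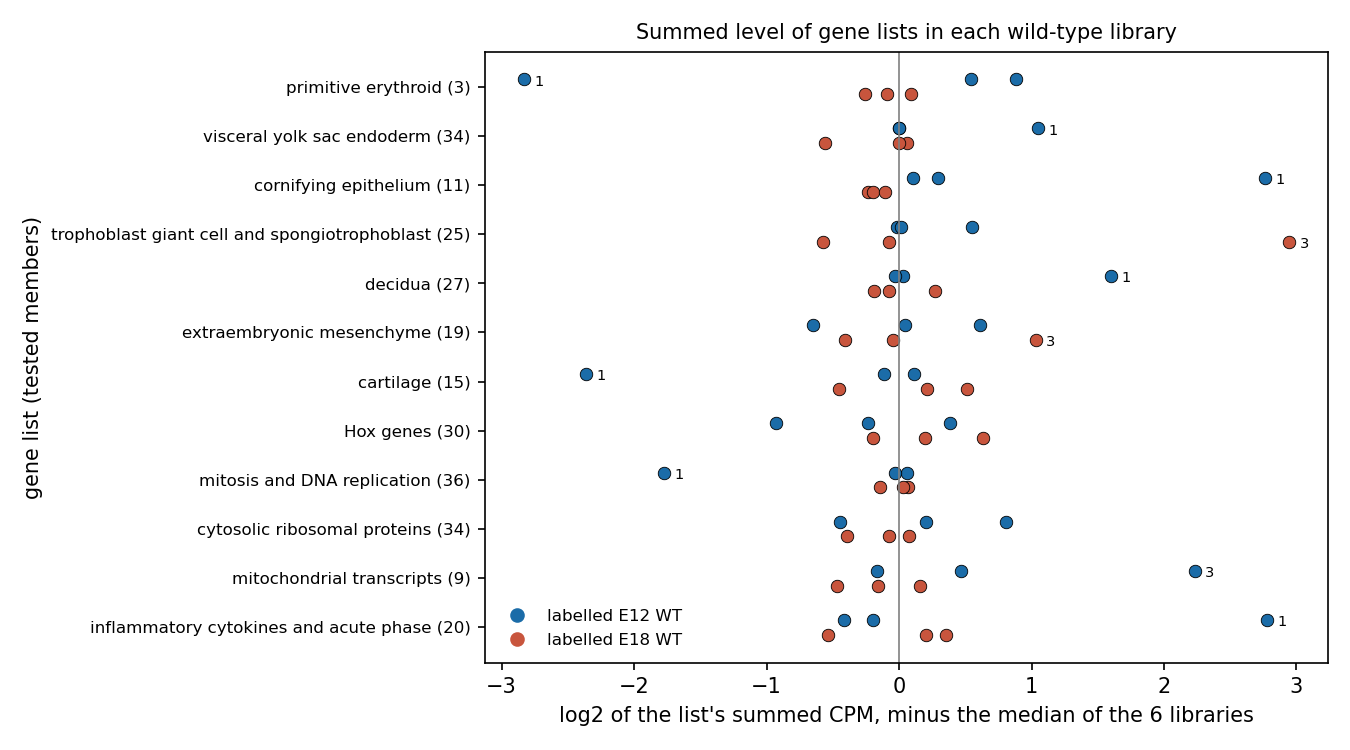
Summed CPM of 12 gene lists in each wild-type library, on a log2 scale relative to the median of the 6 libraries; the number in brackets is the count of tested members, and libraries that stand apart are numbered. E12 WT 1 is lowest for primitive erythroid, cartilage and mitosis genes and highest for cornifying epithelium, decidua and inflammatory genes, and E18 WT 3 is highest for trophoblast giant cell and spongiotrophoblast genes.

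Cell division genes did not separate the groups. The 36 mitosis and DNA replication genes summed to 728, 2598 and 2446 CPM in E12 WT and to 2614, 2543 and 2255 CPM in E18 WT, against 275 to 341 CPM in E18 DKO, and none was called with or without E12 WT 1. All E18 WT libraries thus lay with E12 WT 2 and 3, and E12 WT 1 lay between these and E18 DKO. The same library stood apart for the cornifying epithelium genes, the late keratinocyte programme, which summed to 589, 106 and 93.4 against 74.0, 75.9 and 80.9 CPM, with none of 11 called. Its keratin genes Krt13 (197 CPM, against 0.0377 to 3.30 CPM in the other 5 wild-type libraries) and Krt6a (112 CPM, against 0.557 to 1.25 CPM) were at their highest there. Inflammatory cytokine and acute-phase genes summed to 826, 90.2 and 105 against 139, 83.2 and 154 CPM, with none of 20 called.

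Genes of translation and respiration were called lower once E12 WT 1 was left out. Of 34 cytosolic ribosomal protein genes, 15 were called lower in E18 WT and none higher, beside 5.61% lower among all genes, with a median log2 difference of -0.72 against 0.05 over all genes. Rps15 stood at 303, 550 and 934 CPM in E12 WT and at 359, 293 and 347 CPM in E18 WT (log2 difference -1.15; edgeR adjusted p = 0.0141 without E12 WT 1). Of 27 nuclear oxidative phosphorylation genes, 11 were called lower and none higher, with a median of -0.66. Cox5b, a subunit of cytochrome c oxidase, stood at 87.8, 178 and 252 against 118, 113 and 111 CPM (log2 difference -0.92 ± 0.16; edgeR adjusted p = 0.0133). Of 9 mitochondrial transcripts 5 were called lower, among them the ribosomal RNA mt-Rnr2 at 3414, 2423 and 10971 against 1516.5, 990.3 and 1920.05 CPM (log2 difference -2.18; edgeR adjusted p = 0.0442). These groups moved with E12 WT 3: it held the highest value of 31 of the 34 ribosomal, 18 of the 27 respiratory and all 9 mitochondrial genes. With E12 WT 3 left out as well, only E12 WT 2 stood for its group, so calls are not counted. The median log2 differences were then -0.36 (ribosomal), -0.33 (respiratory) and -0.61 (mitochondrial), against 0.04 over all genes. Scaled by library size alone, 6 ribosomal, 4 respiratory and no mitochondrial genes were called lower without E12 WT 1. With all libraries in the fit none of the 3 lists had a called member. The fit of the wild-type libraries alone without E12 WT 1 called no member either, beside 1.31% of all genes. Its median log2 differences were -0.72 (ribosomal), -0.66 (respiratory) and -1.76 (mitochondrial), so the calls above rested on the spread shared with the DKO libraries.

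Some interferon-stimulated and matrix genes were called higher in the same setting. Of 32 interferon-stimulated genes 7 were called higher without E12 WT 1 and none lower, beside 3.38% higher among all genes. None was called with all libraries. The fit of the wild-type libraries alone without E12 WT 1 called none of them either, beside 1.31% of all genes. Their median log2 difference was 0.80 in both fits without E12 WT 1. With E12 WT 3 left out as well, only E12 WT 2 stood for its group, and the median was 0.80. Parp14 stood at 46.9, 8.38 and 7.53 CPM in E12 WT and 20.4, 16.8 and 22.5 CPM in E18 WT (log2 difference 1.32; edgeR adjusted p = 0.0111), and Oasl1 at 2.42, 1.18 and 0.824 against 4.49, 3.75 and 3.73 CPM (1.97 on the log2 scale; edgeR adjusted p = 0.0228). E12 WT 1 held the highest value of 16 of the 32 genes. Of 25 matrix proteases and inhibitors 3 were called higher (Mmp2, Mmp16 and Adamts12), with the gelatinase gene Mmp2 at 187, 58.5 and 54.6 against 138, 137 and 212 CPM (log2 difference 1.52; edgeR adjusted p = 0.0111). Of 14 small leucine-rich proteoglycans, relatives of Bgn and Dcn, 1 was called, Prelp, at 100.6, 15.3 and 10.9 against 36.6, 39.2 and 36.5 CPM (1.51 ± 0.23; edgeR adjusted p = 0.00798). With the wild-type libraries alone and E12 WT 1 left out, 1 of 22 proteases and inhibitors and 1 of 14 proteoglycans were called higher. The median log2 difference without E12 WT 1, DKO libraries included, was 0.76 for the proteases and inhibitors and 0.62 for the proteoglycans. With E12 WT 1 and 3 both left out the medians were 0.69 and 0.77. Without E12 WT 1 alone, 2 stromal collagens of 18 were called higher and 1 lower, and none of 24 basement membrane and 26 elastic fibre and crosslinking genes was called. The E18 WT libraries lay between E12 WT 1 and the other E12 WT libraries for Parp14 and Prelp. Bgn and Dcn, the genes removed in DKO, were present in all 6 wild-type libraries: Bgn stood at 686, 270 and 357 against 239, 223 and 381 CPM (edgeR adjusted p = 0.303), and Dcn at 762, 235 and 325 against 198, 353 and 978 CPM (0.868).

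For Prelp, Parp14 and Ahnak2 the sign of the difference changed with E12 WT 1. With all libraries the log2 difference was -0.17 for Prelp and -0.08 for Parp14, neither called. Ahnak2, a large scaffold protein gene, stood at 100, 1.75 and 1.35 CPM in E12 WT and at 10.1, 9.82 and 14.2 CPM in E18 WT. Its log2 difference was -1.60 with all libraries (edgeR adjusted p = 0.49) and 2.85 ± 0.37 without E12 WT 1 (edgeR adjusted p = 0.00447). Col8a1 and H2-Q2 kept their sign and were called once E12 WT 1 was left out. Col8a1, a short-chain collagen, stood at 5.95, 0.285 and 0.412 against 5.80, 3.69 and 4.02 CPM (log2 difference 1.02 with all libraries and 3.70 without E12 WT 1; edgeR adjusted p = 0.557 and 0.00385). H2-Q2, a class Ib histocompatibility gene, stood at 9.95, 1.86 and 1.18 against 17.8, 15.9 and 15.3 CPM (1.91 and 3.40 on the log2 scale; edgeR adjusted p = 0.199 and 0.0121).

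Genes known to vary between inbred strains were also among the falls. Of 10 tested genes of that kind, 2 were called lower and none higher, beside 0.661% lower among all genes. Wdfy1, an endosomal protein gene, measured 55.8, 50.6 and 71.4 CPM in E12 WT and 21.7, 18.4 and 25.0 CPM in E18 WT (log2 difference -1.45 ± 0.19; edgeR adjusted p = 0.00779; 0.0515 without E18 WT 2). Alad, an enzyme of haem synthesis that varies in copy number between strains, measured 122, 250 and 309 against 41.2, 37.1 and 36.3 CPM (log2 difference -2.57 ± 0.52; edgeR adjusted p = 0.0446; 0.164 without E18 WT 3). The E18 WT libraries lay close together for both genes and below every E12 WT library. Both wild-type groups carry the same strain label, and no genotype of single libraries was measured here.

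Sorted into the first class that applied, the 173 calls held 1 gene of a placental, decidual or uterine list (Hoxa10), 3 of another cell marker list (Col2a1, Adgre1 and F13a1) and 12 on or off genes, all 12 lower in E18 WT. A further 7 changed in the direction of the DKO stages, all lower, and 66 in the opposite direction (21 higher and 45 lower), which is 38.2% of the calls. For scale, the DKO stage genes of both directions were 35.8% of all tested genes and the members of the cell marker lists 1.78%. The 35.8% is thus the background of the 7 and 66 genes together, not of the 66 alone. By direction, 1.34% of the 3346 genes higher at E18 in DKO were called lower, against 0.661% of all tested genes. Of the 3156 lower at E18 in DKO, 0.729% were called higher, against 0.292%. The remaining 84 (48.6%) were in none of these classes, and 20 of those were pseudogenes. Without E12 WT 1 the 1684 calls held 4 genes of the placental, decidual or uterine lists, 17 of another cell marker list and 29 on or off genes. In that fit 216 (12.8%) followed the DKO stages, 320 (19%) opposed them and 1098 (65.2%) were in none of the classes. The DKO stage genes came from a fit of the DKO libraries alone, which entered the wild-type comparison only through the shared spread and scaling.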

How the data were processed

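The values used are raw counts of reads per gene and library, as the authors deposited them. Per the file headers they were made with featureCounts from Subread 1.5.0 on exons grouped by gene, strand-aware, without reads that fit several places, on GRCm38 with Ensembl annotation. The submitters' processing notes also name Trimmomatic 0.36 and STAR 2.4.2a. The count column of E12 DKO 1 was read from the series table. Of 48795 genes, 18153 passed edgeR's filterByExpr. edgeR 4.0.16 quasi-likelihood tests were run in R 4.3.3 on all 12 libraries with 1 mean per group, TMM scaling and Benjamini-Hochberg adjustment over all genes tested, with a threshold of 0.05. All adjusted p values come from these models, and the scripts were tested on simulated data. Settings tried were other scalings, filters, DESeq2 1.42.0, limma 3.58.1 voom with quality weights, the wild-type libraries alone, a replicate block, and each library left out. DKO stage genes had a 2-fold change in a fit of the 6 DKO libraries. Sequences and positions come from GENCODE M21 on GRCm38, and parents of copies were found by BLAST among its coding transcripts. Named genes were, per fit, the 15 largest rises and falls at a mean of 5 CPM or more without overlap, up to 4 lowest-p members per list, and on or off genes; others are said to be chosen later. The comparison, the lists and the rules were chosen with earlier results of these data known. Replicate numbers were not used to pair the libraries in the main fit, since the labels do not say what they mark. Intervals (95%, exact binomial) and floors (3 counts) cover counting error only. Wild-type depth of 20240876 to 30210498 counts sets a floor of 0.0879 to 0.177 CPM. A gene that the rule would name is not reported here.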

Additional observations from a re-analysis of the deposited data

Results flagged for a closer look

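Every gene below was called between E18 WT and E12 WT and is listed because its stage change differed between wild type and DKO by edgeR's test of the difference itself (adjusted p below 0.05). Each value is the wild-type log2 stage difference minus the DKO one. The difference was called for 41.9% of all tested genes, so a flag on a called gene is common. Among coding genes that fell in wild type, the values were -8.94 for Mycbpap, -5.57 for Hbegf, -2.88 for Alad, -5.80 for Gprc5a, -2.15 for Abhd1, -2.32 for Dhrs3, -3.56 for Cdkn1c, -1.94 for Wdfy1, -3.71 for Usp2, -4.15 for Mapk13 and -2.54 for Pnrc1. Mapk13 and Cdkn1c rose between the DKO stages, and E18 WT libraries lay near their E12 DKO levels. Genes near 0 in 1 wild-type group gave values that depend on the prior count and are not bounds, namely -10.73 for Nudc-ps1, -8.28 for Eno1b, -5.09 for Zfp990, -7.11 for Eif3j2, -6.08 for mt-Ta, -7.42 for Col6a5, -10.60 for Rps15a-ps8, -6.27 for Rpl31-ps15, -5.42 for C1s2, -6.83 for Trim34b and 8.25 for Hoxd11. Among genes that rose in wild type, the values were 7.42 for ccdc198, 2.64 for Noct, 9.25 for Col2a1, 4.78 for Rarb, 5.03 for Unc5c, 2.81 for Slfn9, 1.79 for Rps3a1, 2.76 for Fat4, 2.75 for Adgre1, 2.49 for Fut10, 3.24 for Tril, 2.46 for Kctd12, 1.78 for Acp1, 3.78 for Gli3, 2.45 for Scoc, 1.74 for F13a1, 9.22 for Hoxa10, 2.34 for Hoxa13 and 1.60 for Eif3j1. Col2a1, Hoxa10, Rarb, Unc5c and Gli3 lay in opposite directions in the 2 genotypes, with wild-type log2 differences of 2.88, 3.49, 2.65, 2.48 and 1.59 and DKO differences of -6.37, -5.72, -2.14, -2.55 and -2.18. What sets these differences apart, among genotype, strain and the state of single libraries, cannot be told apart in this design.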

How the results depend on the processing

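The number of called genes, 173 with all libraries, depended on which libraries and which tool were used. It ranged from 35 to 1684 when each wild-type library was left out in turn, with 1684 only without E12 WT 1 and 104 or fewer without any other. It was 56 with the 6 wild-type libraries alone, 228 with these but E12 WT 1, 272 with library size alone (181 higher), 1223 with DESeq2 and 1863 with limma voom and quality weights. Settings chosen after seeing the data gave 70 without E12 WT 1 and 3, 1028 without E12 WT 1 and E18 WT 3, 3275 with DESeq2 and 1527 with library size alone, both without E12 WT 1. With the replicate number as a block it was 77, and 1729 with E12 WT 1 left out too. Same-numbered libraries correlated at -0.003, 0.24 and 0.15 in their deviations, and differently numbered ones at -0.20 to 0.02. Whether the numbers pair the libraries cannot be told from so few values. By the numbers of the count columns, the 2 pairs that wild-type groups share correlated at 0.02 and -0.20. DESeq2 size factors (176), no filter (223), a 1 CPM filter (164) and a 2-fold minimum (149) stayed within 1.5 times. At an unadjusted p below 0.05, 3292 genes differed. The count for the difference of the stage changes, 7600, ranged from 6241 to 8528 over the leave-one-out fits. On or off genes numbered 26 with limits of 1 and 0.1 CPM, 21 with 5 and 0.5, 19 to 38 with a library left out, and 3 with copy and parent counts added, where any pair with an expressed parent leaves the class by construction. Sorting without E12 WT 1 gave 4, 17, 29, 216, 320 and 1098 genes in the order of the classes above. The difference in embryonic beta-globin share, 12.3 points, ran from -14.7 to 26.4 over the leave-one-out values and was -6.88 for alpha-globin. Of the 45 named genes called with all libraries, 12 to 24 kept the call without another single wild-type library and all 45 without E12 WT 1; Eno1b, Rps26-ps1, Eif3j2 and Rpl31-ps15 kept it in every setting. Without E12 WT 1, Ahnak2 turned from -1.60 to 2.85 (5 wild-type libraries 2.86, E18 WT 3 also out 2.66, DESeq2 2.84, block 2.80, library size 3.10; voom with all libraries 2.32), Prelp from -0.17 to 1.51 (in the same order 1.52, 1.53, 1.5, 1.46 and 1.76; voom 1.22) and Parp14 from -0.08 to 1.32 (E18 WT 3 also out 1.22, DESeq2 1.30, block 1.36, library size 1.58; voom 1.11). Over the leave-one-out fits the lowest values of the 3 genes were -2.17, -0.63 and -0.48. The cause of these changes was not tested.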
